A study of Mus musculus with 20 samples.

Results

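Heterotrimeric G proteins carry the signal of cell surface receptors inward, and regulators of G protein signaling (RGS) end it. The genes described here are all symbols of the count tables for the alpha, beta and gamma subunits (Gna, Gnb and Gng) and for the numbered RGS proteins, except Rgs9, which the rule leaves out. They numbered 52 of 23413 symbols, with 16 alpha, 5 beta, 12 gamma and 19 RGS genes. Expression was measured by total RNA sequencing of the cortex of 20 APOE4 knock-in mice, 1 library per mouse. All mice carried the same human APOE4 allele in place of mouse Apoe (background B6(SJL), Apoe allele tm1.1(APOE*4)Adiuj) and were 22 months old, and no wild-type or APOE3 group was included. From 10 months of age they were fed either a carbohydrate-rich control diet (CD) or a ketogenic diet (KD), high in fat and low in carbohydrate, in isocaloric amounts for 12 months. The groups were 4 KD females with 5 CD females, and 6 KD males with 5 CD males. The question was which of these genes differed with the diet within each sex, over both sexes and between the sexes.

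A receptor that binds its ligand makes the alpha subunit exchange GDP for GTP and part from the beta-gamma dimer, and both parts act on effectors such as adenylyl cyclases, phospholipase C beta and potassium channels. RGS proteins speed the GTP hydrolysis of the Gi/o and Gq classes of alpha subunit and so shorten the signal. In the brain, most modulatory transmitters act through this cycle, and the subunits in use differ between regions. In medium spiny neurons of the striatum, Golf (Gnal) with the gamma subunit Gng7 largely takes the place of Gs.

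The libraries held 12207161 to 29109990 counts on genes. They came in 2 series by library number, here called series 1 and series 2, with 10 libraries of all 4 groups in each. Series 1 held 21015275 to 29109990 counts and series 2 held 12207161 to 17697342. The 52 genes took 0.472% to 0.641% of the counts of a library. Levels are given as CPM, counts scaled to a common library total. In these bulk samples, fewer cells of a type and less RNA per cell cannot be told apart.

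Several libraries stood apart from their groups in genes that mark brain regions or sex. First among these were 20 striatal markers, whose most abundant gene was Pde10a and none of which was at 0 throughout. Their summed level was 2889, 2658 and 3260 CPM in the KD females E61, E68 and E207, and 345 CPM in the remaining one, E227. It was 4344 CPM in KD male E59 and 1143 CPM in CD female E249, against 271 to 814 CPM in the other 14 libraries. The 10 markers of cortical excitatory neurons, led by Slc17a7, summed to 436, 480 and 535 CPM in E61, E68 and E207 and to 459 CPM in E249, against 840 to 1137 CPM in the rest. The 8 choroid plexus markers, led by Ttr at 2187 CPM, summed to 2355 CPM in E59 and to 11.4 to 55.6 CPM elsewhere. Mouse Apoe stood at 1.33 to 3.34 CPM in all libraries. The Y-linked gene Ddx3y stood at 14.0 CPM in CD female E228, whose Xist level of 545 CPM lay within the female range. Other females were at 0 to 1.64 CPM of Ddx3y and males at 164 to 241 CPM. Among males, Xist stood at 7.59 CPM in KD male E254 and at 0 to 2.13 CPM in the others.

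Levels between genes were compared per length, as mean CPM per kb of exon sequence over the 20 libraries. Rgs4, an R4-family RGS protein abundant in cortical neurons, had the highest level at 226.7 CPM per kb. Gnb1, the main beta subunit, followed at 144 CPM per kb, and Gnai1, an inhibitory alpha subunit, at 106 CPM per kb. Gng2 led the gamma subunits at 74.1 CPM per kb. Gnas, the alpha subunit of Gs, stood at 70.4 CPM per kb, and at 200 CPM per kb when the longest transcript was taken as the length. Its exons span several long transcripts, and the gene overlaps the antisense gene Nespas. Leaders of the other classes were Gnaq at 49.2, Gna13 at 20.2, Rgs17 of the RZ family at 31.4, Rgs10 of the R12 family at 16.4 and Rgs7 of the R7 family at 16.1 CPM per kb. With the longest transcript as the length, Rgs10 stood at 31.9, level with Rgs17 at 31.8, Rgs7 at 26.4 and Gnb1 at 196 CPM per kb, so that the order between classes depended on the length taken. Gnb5, the beta subunit that R7 proteins bind, stood at 43.0 CPM per kb.

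At the low end, 6 members did not pass the filter on low counts and were not tested. These were Gnat1, Gnat2 and Gnat3, the alpha subunits of rod, cone and taste cells, the cone beta subunit Gnb3, Gng8 and the rod gamma subunit Gngt1. Gngt1 had no count in any library. Gnat3 had at most 1 count and a count in 3 libraries, Gnb3 at most 8 counts and Gnat1 at most 5. Among the 46 tested members, Rgs1 and Rgs18 had the lowest levels, at 0.0490 and 0.179 CPM per kb.

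**Figure D1:**
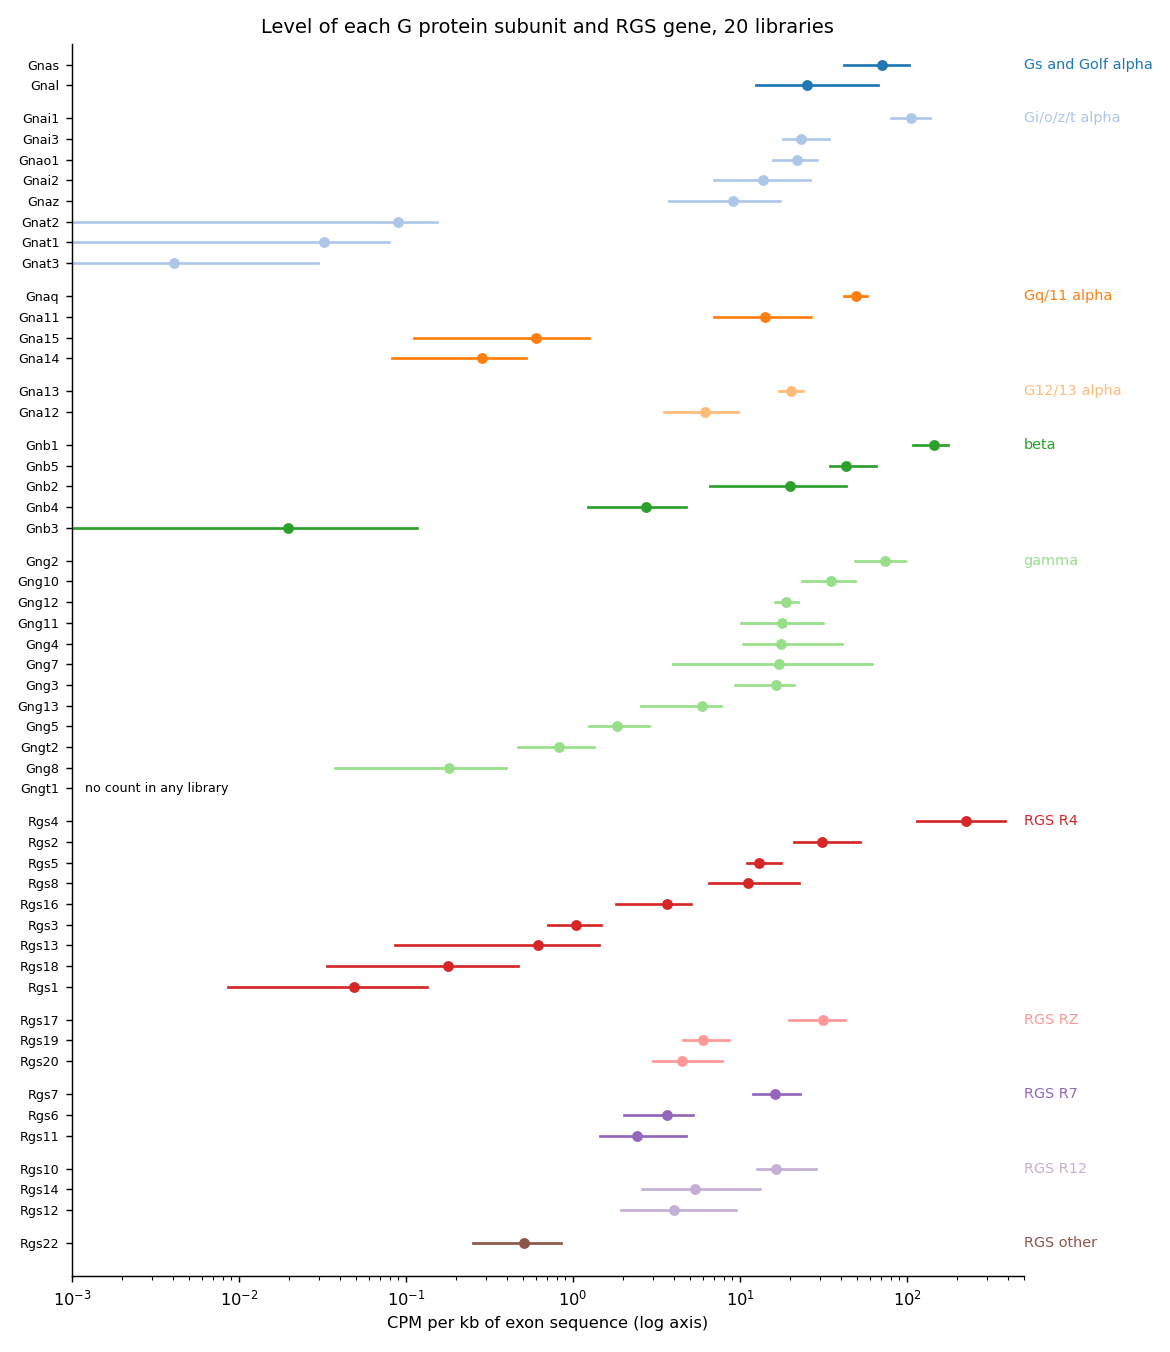
Mean CPM per kb of exon sequence (dots, log axis) of the 52 genes by class, with lines from the lowest to the highest of 20 libraries; a line that reaches the left edge has at least 1 library at 0. Rgs4, Gnb1 and Gnai1 lie above 100 CPM per kb, and Gnal and Gng7 have long lines for their level.

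Of the members with the highest counts or levels, Gnai1 had an unadjusted p under 0.05 in females and is described with the other alpha subunits. Gnb1 was 612 ± 109 CPM (SD, n = 5) in CD females, 596 ± 38.5 (n = 4) in KD females, 634 ± 36.8 (n = 5) in CD males and 615 ± 57.4 (n = 6) in KD males. Gnas was 751 ± 222, 743 ± 157, 836 ± 165 and 809 ± 218 CPM in the same order of groups. Rgs4 ran from 356 to 933 CPM in CD females, from 528 to 593 in KD females, from 678 to 965 in CD males and from 369 through a median of 686 to 1199 in KD males. Gnb1, Gnas and Rgs4 had no unadjusted p under 0.05 for the diet in either sex. The summed level of the 52 genes was 5204 ± 466, 5587 ± 488, 5273 ± 353 and 5335 ± 631 CPM.

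Differential expression was tested with the quasi-likelihood test of edgeR over 15660 genes, and a differentially expressed gene (DEG) had a false discovery rate (FDR) of at most 0.1 and a change of at least 1.5-fold. Over both sexes, 2 members were DEGs, Gnb4 and Rgs12, and both rose with the KD, where 0.268% of all genes tested were DEGs. At an unadjusted p under 0.05 there were 13 members of 46 (28.3%), 10 higher and 3 lower, against 13.9% of all genes, 7.41% higher and 6.44% lower. In females no member was a DEG (0.0447% of all genes), and 11 members (23.9%) had an unadjusted p under 0.05, 7 higher and 4 lower, against 11.4% of all genes, 5.86% higher and 5.5% lower. DESeq2 and edgeR's likelihood ratio test each called 2 members in females, Gnb4 and Rgs8. The shares of all genes that these tests called are not given here. Their counts therefore do not show whether members were called more often than other genes. In males no member was a DEG (0% of all genes), and 4 members (8.7%) had an unadjusted p under 0.05, all higher, against 3.56% of all genes, 2.37% higher and 1.19% lower. The median log2 fold change of the members was 0.16 in females, 0.06 in males and 0.10 over both sexes, against 0.01, 0.00 and 0.01 for all genes tested. KD and CD libraries did not overlap in CPM for 0 members in females (2.1% of all genes) and for 2 members in males, Gnb4 and Rgs13 (0.217% of all genes).

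By class over both sexes, all 3 tested R12 RGS genes were higher at an unadjusted p under 0.05, with a median log2 fold change of 0.58. All 3 R7 RGS genes had negative values, 2 of them at an unadjusted p under 0.05, with a median of -0.36. Of the 9 R4 genes 3 were higher and none lower. One of 4 beta, 1 of 10 gamma and 2 of 13 alpha subunits were higher, and 1 alpha subunit was lower. The 3 RZ genes, the 2 G12/13 subunits and Rgs22 had no value past that level.

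**Figure D2:**
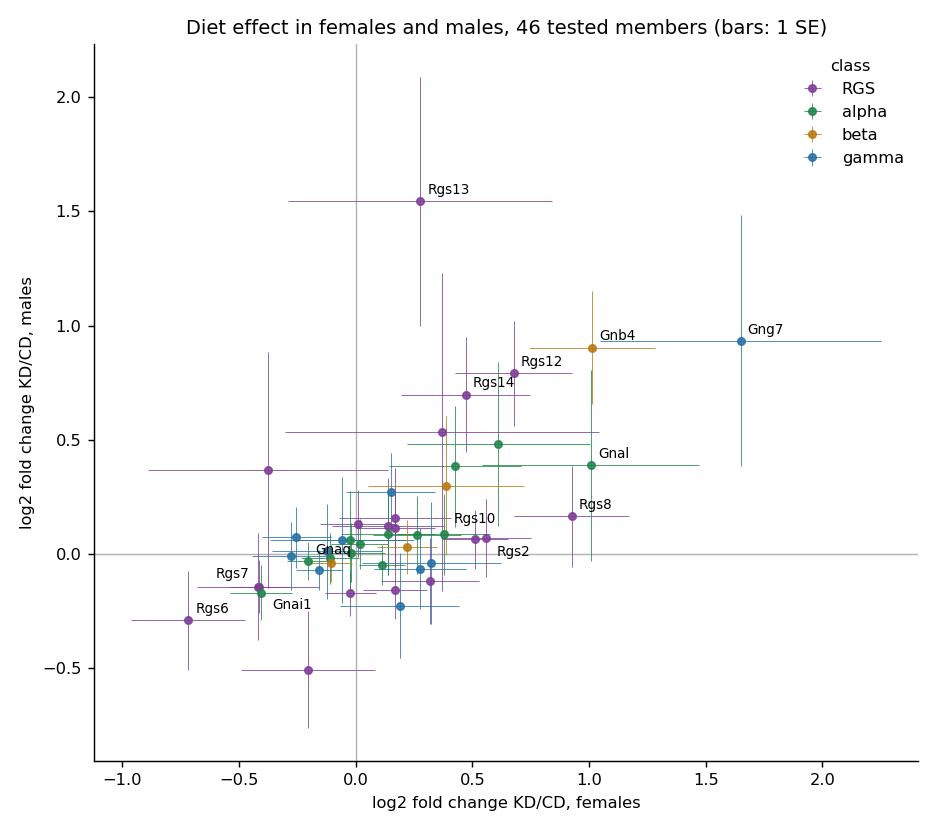
Log2 fold change of KD against CD in females (x axis) and males (y axis) for the 46 tested members, with bars of 1 SE and names for those with an unadjusted p under 0.05 in either sex. Gnb4, Rgs12, Rgs14 and Gng7 lie above 0 in both sexes, as do Rgs8, Rgs2 and Rgs10, with values of 0.17, 0.07 and 0.06 in males. For Gng7 in males, the KD median of 28.4 CPM lay below the CD median of 30.5 CPM, and E59 had 235 CPM.

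Gnb4 (chromosome 3, 32580332 to 32616585, minus strand, GRCm38) encodes a beta subunit that is sparse in cortex beside Gnb1, at 2.75 CPM per kb (5.83 by the longest transcript). In the CD females E62, E67, E228, E249 and E265 its level was 18.2, 30.3, 17.0, 48.6 and 17.0 CPM. The KD females E61, E68, E207 and E227 had 42.9, 58.6, 59.6 and 54.5 CPM. All KD females lay above 4 of the 5 CD females, and E249 lay between them. In CD males the level was 18.6, 21.2, 15.6, 24.1 and 28.3 CPM, and in KD males it ran from 31.3 through a median of 36.3 to 60.1 CPM. Every KD male lay above every CD male.

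The log2 fold change of Gnb4 was 0.96 ± 0.18 (SE) over both sexes (edgeR FDR 0.0583), 1.01 ± 0.27 in females (FDR 0.194) and 0.90 ± 0.25 in males (FDR 1.0). A two-sided exact permutation test within each sex, over all splits of its libraries and so without regard to the library series that the edgeR model holds as a term, gave p = 0.0317 in females and 0.00216 in males, the latter being the smallest that the splits of the males allow. These and the permutation p-values below are unadjusted, and they come from the same libraries as the edgeR values. Within series 1 the value over both sexes was 1.04 (edgeR FDR 0.0176) and within series 2 it was 0.85 (FDR 1.0). Leaving out 1 library at a time gave 0.89 (without E228, FDR 0.117) to 1.11 (without E249, FDR 0.00446), and the DEG call was lost without any 1 of 11 libraries, namely E62, E228, E265, E61, E68, E207, E51, E58, E66, E59 and E254. The gene overlaps Gm37640 on the other strand, and whether counting used strand is not given in the sources used here.

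Rgs12 (chromosome 5, 34949445 to 35039644, plus strand) encodes a large R12 protein that also binds Ras and inactive Gi. In CD females it was measured at 22.3, 31.8, 26.2, 30.1 and 16.5 CPM, and in KD females at 43.8, 31.0, 42.8 and 51.6 CPM. Only E68 of the KD females lay within the CD range. CD males had 28.8, 25.9, 19.4, 25.9 and 25.5 CPM, while KD males ran from 25.9 through a median of 37.3 to 80.3 CPM. The highest value was that of E64, and E256 was within the CD range. Rgs12 rose by 0.73 ± 0.17 on the log2 scale over both sexes (edgeR FDR 0.0982), with 0.68 ± 0.25 in females (FDR 0.302) and 0.79 ± 0.23 in males (FDR 1.0). Exact permutation p-values were 0.0238 in females and 0.0195 in males. The value was 0.72 in series 1 (FDR 0.122) and 0.70 in series 2 (FDR 1.0). Without E64 it was 0.61 (FDR 0.112), and the call was lost without any 1 of 15 of the 20 libraries, of which E62, E67, E228, E265, E61, E68 and E207 were female and E51, E58, E66, E251, E264, E59, E64 and E254 male.

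Rgs14 (chromosome 13, 55369732 to 55384687, plus strand), the R12 protein known from the CA2 area of the hippocampus, was measured at 17.7, 31.6, 20.7, 15.4 and 11.4 CPM in CD females and 36.9, 22.8, 26.7 and 26.9 CPM in KD females. CD males had 22.8, 18.9, 10.9, 14.4 and 16.1 CPM, and KD males ran from 13.1 through a median of 24.0 to 55.6 CPM, again highest in E64. The groups overlapped in both sexes. Its log2 fold change was 0.58 ± 0.19 over both sexes (edgeR FDR 0.168), 0.47 in females and 0.70 in males, and 0.45 in males without E64. Exact permutation p-values were 0.0873 in females and 0.115 in males. In E64 the 6 hippocampal markers, led by Fibcd1, summed to 117 CPM against 11.6 to 22.9 CPM in all other libraries. Sums over 7 oligodendrocyte markers, none of them at 0 throughout, were 850 CPM in E64 and 762 CPM in E254, against 1327 to 2286 CPM in the other 18 libraries. In males all 7 had negative log2 fold changes (median -0.44), 2 at an unadjusted p under 0.05. E64 and E254 were the KD males highest for Rgs12 (80.3 and 50.5 CPM), and E254 was the highest for Gnb4 (60.1 CPM). Without E254 the log2 fold change of Gnb4 in males was 0.78. The part of these markers in the Gnb4, Rgs12 and Rgs14 values was not tested.

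Rgs10 (chromosome 7, 128373621 to 128418758, minus strand), the smallest R12 protein and in brain best known from microglia, showed another pattern. CD females had 24.3, 24.3, 22.6, 34.7 and 22.5 CPM and KD females 48.9, 38.9, 34.9 and 31.0 CPM. E249 alone of the CD females lay within the KD range. In males the CD range was 21.8 to 29.3 CPM and the KD range 24.3 to 28.7 CPM. The log2 fold change was 0.51 ± 0.14 in females (edgeR FDR 0.202) and 0.06 ± 0.13 in males (FDR 1.0). It passed as a DEG in females without E249 (0.65, FDR 0.00844) or E227 (0.60, FDR 0.0270). E249 was the highest CD female and E227 the lowest KD female, so leaving out either widens the difference by construction. Sums over 12 microglial markers, none of them at 0 throughout, were 534 and 466 CPM in E61 and E68, the libraries highest for Rgs10, and 271 to 442 CPM in the others. Of the full list of 13 microglial markers all had positive log2 fold changes with the diet in females (median 0.29), 4 at an unadjusted p under 0.05, and 12 in males (median 0.08), none at that level. The part of these markers in the Rgs10 values was not tested.

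**Figure D3:**
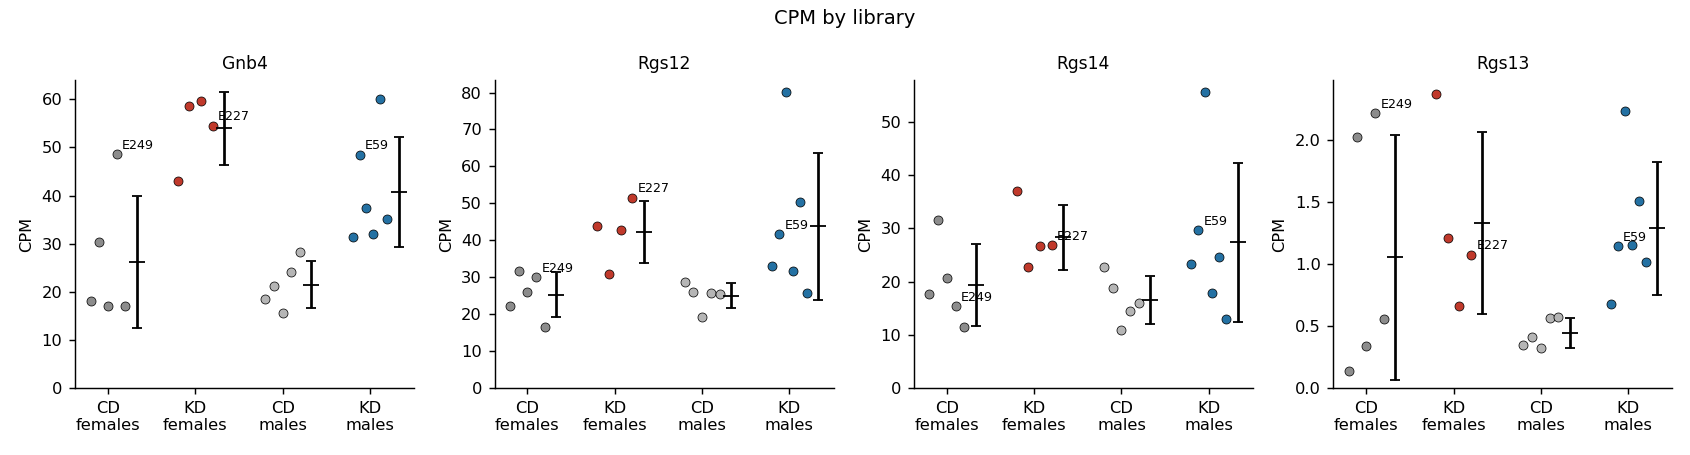
CPM of Gnb4, Rgs12, Rgs14 and Rgs13 in each library by group (points), with the group mean and SD beside them; E227, E249 and E59 are named. The KD males lie above all CD males for Gnb4 and Rgs13, and the highest KD male for Rgs12 and Rgs14, at 80.3 and 55.6 CPM, is the same library.

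Rgs13, an R4 protein known from B cells and mast cells, was low, at 3 to 62 counts per library. CD males had 0.347, 0.412, 0.323, 0.565 and 0.575 CPM, and KD males ran from 0.680 through a median of 1.15 to 2.23 CPM. Its groups did not overlap in males. The KD males highest for it were E64 (2.23 CPM) and E254 (1.51 CPM), the libraries low in oligodendrocyte markers. Without E64 the log2 fold change of Rgs13 in males was 1.31, and the part of those markers was not tested. The CD females ran from 0.143 to 2.21 CPM and covered 3 of the 4 KD females, which had 0.662 to 2.37 CPM. The log2 fold change was 1.54 ± 0.55 in males (edgeR FDR 1.0) and 0.28 ± 0.56 in females (FDR 0.931). An exact permutation test gave p = 0.00433 in males and 0.405 in females.

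Gnal and Gng7 were high in the libraries with high striatal markers. Gnal, the alpha subunit that couples dopamine and adenosine receptors to adenylyl cyclase in the striatum, was measured at 153, 252, 173, 491 and 155 CPM in CD females and at 583, 691, 748 and 155 CPM in the KD females E61, E68, E207 and E227. In KD males E59 had 582 CPM and the other 5 had 143 to 184 CPM, against 140 to 228.3 CPM in CD males. The high libraries were thus E61, E68, E207, E59 and E249, the 5 with the highest striatal sums. Gnal overlaps Chmp1b on its own strand and Mppe1 on the other, whose reads its count could share. Gng7 (chromosome 10, 80948624 to 81014945, minus strand), the gamma subunit that pairs with Golf, was at 31.9, 38.0, 29.3, 72.1 and 14.9 CPM in CD females and at 162, 151, 201 and 26.9 CPM in KD females. E59 had 235 CPM, and the other KD males had 21.7 to 66.7 CPM against 23.4 to 47.2 CPM in CD males. The log2 fold change of Gng7 in females was 1.65 ± 0.60 (edgeR FDR 0.294), the largest of the 46 members, and that of Gnal was 1.01 ± 0.46 (FDR 0.422). Leaving out 1 library moved Gng7 from 0.85 (without E207) to 2.23 (without E249, FDR 0.0346) and Gnal from 0.58 (without E207) to 1.499 (without E249, FDR 0.0443), and both were DEGs without E249, as was Gng7 without E227 (1.99, FDR 0.0691). For both genes E249 was the highest CD female and E227 the lowest KD female, so leaving out either widens the difference by construction. An exact permutation test gave p = 0.0714 for Gng7 and 0.103 for Gnal in females.

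Rgs8 and Rgs2, both R4 proteins, were also highest in E61, E68 and E207. Rgs8 (chromosome 1, 153653025 to 153700323, plus strand), known from Purkinje cells and striatum, was at 86.5, 88.9, 92.1, 100 and 62.7 CPM in CD females and at 216, 189, 217 and 84.3 CPM in KD females. E59 had 185 CPM, and every other male had 73.6 to 106 CPM. The log2 fold change in females was 0.93 ± 0.25 (edgeR FDR 0.194). Rgs2 (chromosome 1, 143999338 to 144004161, minus strand), which acts on Gq and is induced by neuronal activity, was at 91.1, 91.4, 76.1, 151 and 97.5 CPM in CD females and at 190, 180, 170 and 92.4 CPM in KD females. Males had 90.8 to 122 CPM. Its log2 fold change in females was 0.56 ± 0.19 (FDR 0.260). For each of these 4 genes E227 lay within the CD female range. Rgs8 was a DEG without E249 (1.03, FDR 0.0281), E227 (1.15, FDR 0.00710) or E59 (0.95, FDR 0.0858), and Rgs2 without E249 (0.76, FDR 0.0146) or E227 (0.76, FDR 0.0151). Here too E249 was the highest CD female and E227 the lowest KD female, which widens the difference by construction when either is left out.

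Rgs6 and Rgs7, R7 proteins that bind Gnb5 and act on Gi/o, were lower in E61, E68 and E207 than in every other female library. Rgs6 (chromosome 12, 82588292 to 83162056, plus strand, overlapped by several noncoding genes on the other strand) was at 47.7, 41.3, 46.6, 22.1 and 47.6 CPM in CD females and at 21.3, 20.3, 20.7 and 42.3 CPM in KD females. E249 lay near the low KD libraries and E227 within the CD range. In females its log2 fold change was -0.72 ± 0.24 (edgeR FDR 0.255) and in males -0.29 ± 0.22 (FDR 1.0), and it was a DEG in females without E249 (-0.88) or E227 (-1.04). E249 was the lowest CD female and E227 the highest KD female, so leaving out either widens the difference by construction. Rgs7 (chromosome 1, 175059087 to 175492500, minus strand) was at 110, 97.7, 102, 86.9 and 138 CPM in CD females and at 75.5, 76.1, 78.7 and 101 CPM in KD females, with the lowest value of all, 71.8 CPM, in E59. Its log2 fold change in females was -0.41 ± 0.13 (FDR 0.230). Among KD males Rgs6 was lower in E64 (24.8 CPM) and E254 (31.0 CPM) than in E59 (32.1 CPM). Rgs11, the other R7 gene tested, was at 13.6, 12.5, 11.4, 6.14 and 6.99 CPM in CD females and at 7.80, 6.72, 8.98 and 12.98 CPM in KD females. E249 was thus low and E227 high, as for Rgs6, while E265 was low for Rgs11 alone of the 3 genes. In males E59 with 8.79 CPM lay above E64, E254 and E256. Its log2 fold change was -0.20 ± 0.29 in females (FDR 0.883) and -0.51 ± 0.26 in males (FDR 1.0). Gnb5 itself had 111 to 133 CPM in CD females and 183, 152, 155 and 127 CPM in KD females, with 203 CPM in E59, and a log2 fold change of 0.22 ± 0.13 (FDR 0.570).

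Of the other alpha subunits, Gnai1, which inhibits adenylyl cyclase, was at 333, 373, 328, 368 and 431 CPM in CD females and 253, 333, 263 and 302 CPM in KD females. E68 alone overlapped the CD range. Its log2 fold change was -0.41 ± 0.13 in females (edgeR FDR 0.241), -0.17 ± 0.12 in males (FDR 1.0) and -0.29 ± 0.09 over both sexes (FDR 0.157). Gnaq, which activates phospholipase C beta, was 309 ± 27.5 CPM in CD females and 280 ± 17.7 CPM in KD females, with a log2 fold change of -0.21 ± 0.09 (FDR 0.400). The inhibitory subunits Gnai2, Gnai3, Gnao1 and Gnaz had log2 fold changes of 0.38, -0.02, 0.02 and -0.03 in females and of 0.09, 0.01, 0.04 and 0.06 in males, all with an unadjusted p of at least 0.0691. Gna14, a low member of the Gq class at 7 to 28 counts per library, had 0.40 ± 0.19 over both sexes (FDR 0.360).

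The 9 gamma subunits other than Gng7 had log2 fold changes from -0.28 (Gng3) to 0.32 (Gngt2) in females and from -0.23 (Gng11) to 0.27 (Gng10) in males. The RZ proteins, which act on Gz, ran from 0.01 (Rgs19) to 0.17 (Rgs17) in females and from 0.11 (Rgs17) to 0.16 (Rgs20) in males. Gna12 and Gna13, which act on the cytoskeleton, were at 0.26 ± 0.19 and 0.11 ± 0.10 in females and at 0.08 ± 0.17 and -0.05 ± 0.09 in males. Rgs4 was at -0.42 ± 0.26 in females (edgeR FDR 0.601) and -0.14 ± 0.23 in males (FDR 1.0). None of these had an unadjusted p under 0.05 for the diet.

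**Figure D4:**
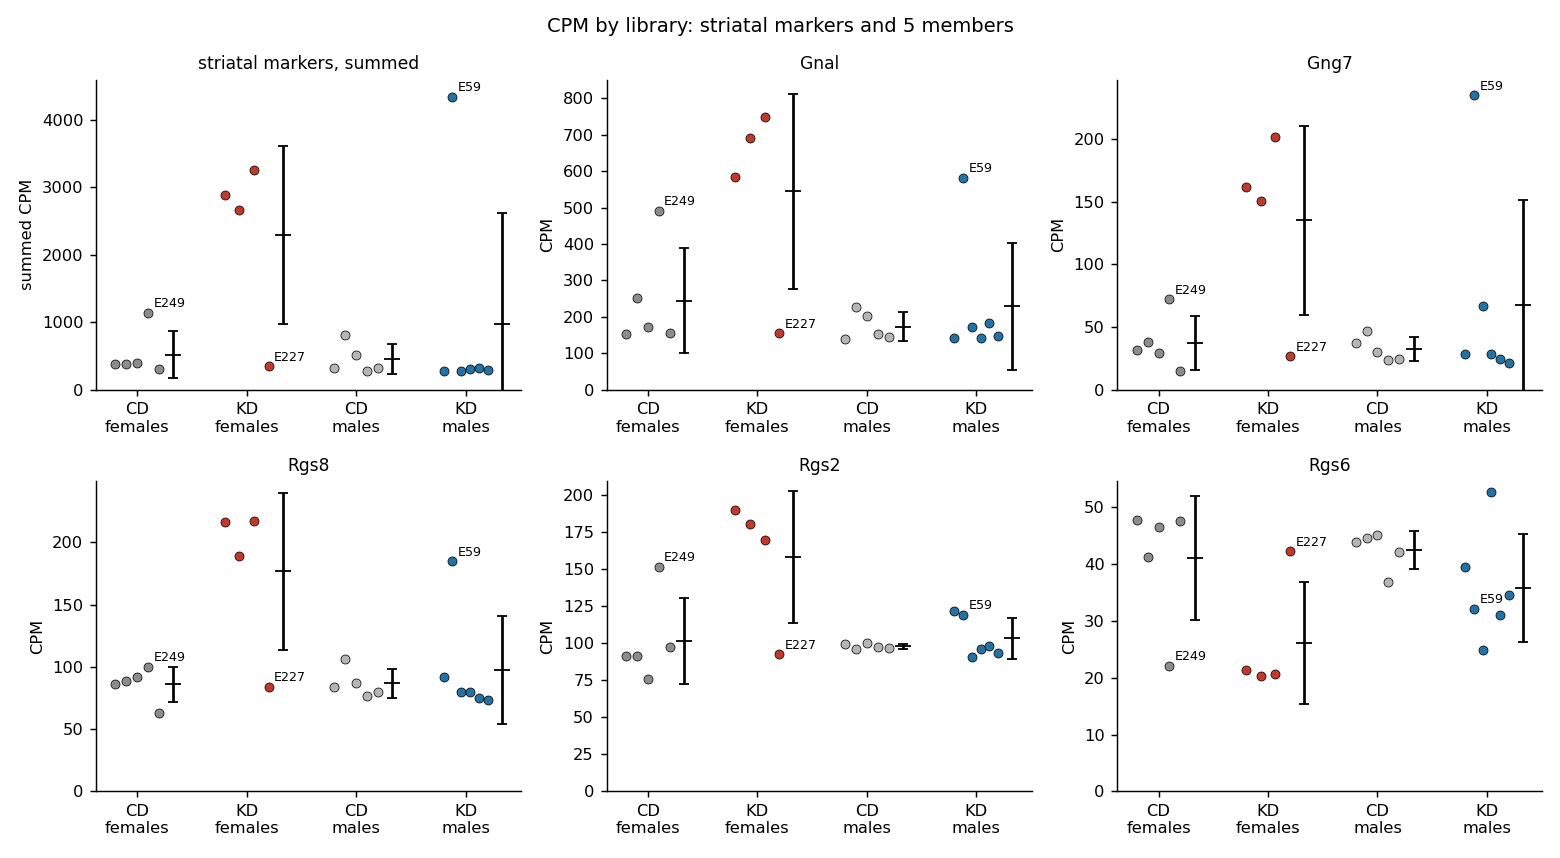
Summed CPM of 20 striatal markers and CPM of Gnal, Gng7, Rgs8, Rgs2 and Rgs6 in each library by group (points), with the group mean and SD beside them; bars that would pass below 0 end at 0, and E227, E249 and E59 are named. The KD females E61, E68 and E207 and the KD male E59 are high for the markers, Gnal, Gng7 and Rgs8, and E227 lies with the controls in all 6 panels.

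In females all 20 striatal markers tested had positive log2 fold changes (median 2.20), 13 at an unadjusted p under 0.05, and 9 of 10 markers of cortical excitatory neurons had negative ones (median -0.93), 5 at that level. Of 7 markers of cortical inhibitory neurons 4 were negative (median -0.64), and 3 negative and 1 positive marker reached that level. All 4 thalamic markers were positive (median 0.88), 1 at that level, and their mean z-score was highest in E61 (1.65), E68 (1.25), E249 (0.94) and E207 (0.83). The part of these inhibitory and thalamic markers was not tested. With a striatal score for each library (the mean z-score of 19 of these markers) added to the model, 4 members had an unadjusted p under 0.05 in females in place of 11: Gnb4, Rgs12, Gnai2 and Rgs16. That was 8.7% of the members, against 5.40% of all genes tested in the same model. With that term the log2 fold change in females was -0.03 for Gng7, -0.31 for Gnal, 0.20 for Rgs8, 0.17 for Rgs2, 0.25 for Rgs10, -0.15 for Rgs7 and -0.33 for Rgs6. It was 0.66 for Gnb4 (edgeR FDR 0.847) and 0.70 for Rgs12 (FDR 0.847). Over both sexes, Gnb4 was at 0.75 (FDR 0.276) and Rgs12 at 0.75 (FDR 0.339), neither of them a DEG. Gnal and Gng7 are themselves genes of striatal neurons, and in females the score and the diet run together except in E227 and E249.

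**Figure D5:**
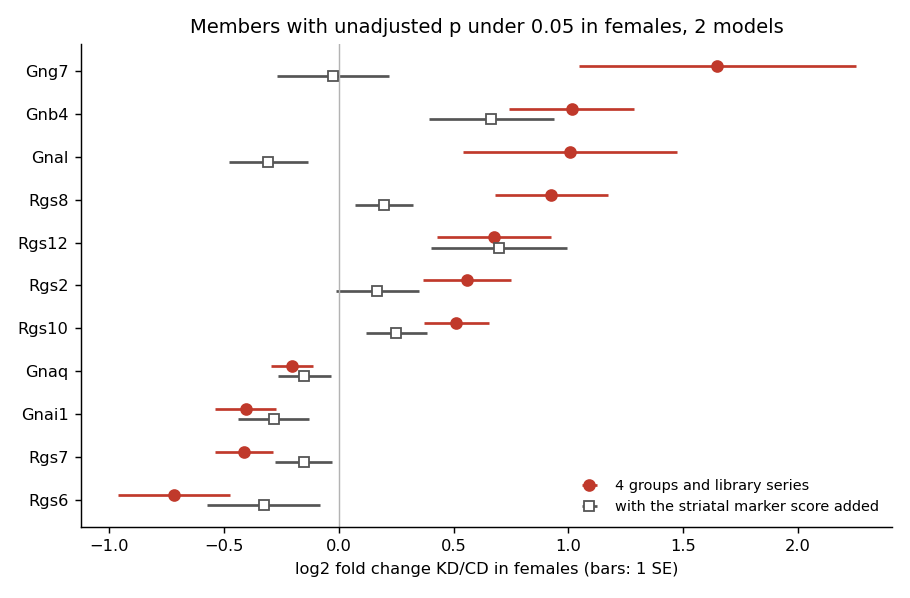
Log2 fold change of KD against CD in females, with bars of 1 SE, for the 11 members with an unadjusted p under 0.05, from the model with the 4 groups and the library series (filled circles) and with the striatal marker score added (open squares). Gng7 and Gnal move from 1.65 and 1.01 to -0.03 and -0.31, while Rgs12 stays near 0.7.

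The difference between the sexes in the effect of the diet was tested as an interaction. No member was a DEG (0% of all genes), and 2 of 46 members, Rgs10 and Rgs8, had an unadjusted p under 0.05 (4.35%, both with the larger value in females, against 2.14% of all genes, 1.09% in that direction and 1.05% in the other). That count ran from 0 (without E67, E61, E58 or E64) to 7 (without E249) when 1 library was left out, and changed by over 1.5 times in 12 of the 20 cases. The shares of all genes in those fits are not given here. The range therefore does not show whether members were called more often than other genes. The effect in females minus that in males was 0.45 ± 0.19 on the log2 scale for Rgs10 (edgeR FDR 1.0) and 0.76 ± 0.33 for Rgs8 (FDR 1.0), which was 0.50 without E207. For Gnb4 and Rgs12 the effects in the 2 sexes lay within 1 SE of each other.

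Between females and males over both diets, no member was a DEG (0.134% of all genes). An unadjusted p under 0.05 was found for 11 members (23.9%, against 13.6% of all genes), 8 higher in females (8.59% of all genes) and 3 lower (4.96%). The smallest p was that of Rgs5, a gene of pericytes, with a log2 difference of 0.24 ± 0.07 (edgeR FDR 0.193). Rgs5 ran from 55.4 to 72.7 CPM in CD females, from 54.5 to 80.0 in KD females, from 51.4 to 66.8 in CD males and from 49.9 through a median of 51.6 to 52.8 in KD males, so that the sexes overlapped. In the same comparison all 20 striatal markers had positive log2 differences (median 1.13), 7 at an unadjusted p under 0.05, all 10 markers of cortical excitatory neurons negative ones (median -0.53), 7 at that level, and the 12 microglial markers summed above positive ones (median 0.19), 4 at that level. With the striatal score in the model, 3 members in place of 11 had an unadjusted p under 0.05, against 3.67% of all genes. All 7 endothelial markers (median 0.25, 4 at that level) and all 9 mural cell markers, Rgs5 not among them (median 0.12, none at that level), also had positive log2 differences, and none of the 16 was at 0 throughout. Their part in the Rgs5 value, and that of the cortical and microglial markers in the others, was not tested. Besides Rgs5, the members higher in females at that level without the score were Rgs10 (0.30), Gnal (0.93), Gng4 (0.58), Rgs8 (0.45), Rgs1 (0.93), Rgs2 (0.33) and Gna14 (0.47), and lower were Rgs22 (-0.49), Gng13 (-0.45) and Gng2 (-0.23). Gng4 and Gna14 had their highest value in E249, at 136 and 1.80 CPM, and Gng13 its lowest there, at 1.97 CPM. Without E249 the value of Gng4 was 0.38. Without E227, Rgs22 (-0.59), Gnal (1.05), Gng4 (0.64) and Rgs1 (1.07) were DEGs, and without E59, Gnal (1.13) and Gng7 were. E59 was the highest male for Gnal and Gng7, so leaving it out widens their difference between the sexes by construction. Rgs1 rests on 1 to 23 counts per library and had no value in some of the fits that left out 1 library.

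The partners of the cycle were read from a list of 42 genes, of which 39 were tested. None was a DEG in any of the 3 diet comparisons. In females 11 of 39 had an unadjusted p under 0.05 (28.2%, against 11.4% of all genes), 6 higher and 5 lower. In males there were 2 (5.13%, against 3.56%), both lower, a share close to that of all genes, and over both sexes 11 (28.2%, against 13.9%), 6 higher and 5 lower. The potassium channel genes Kcnj3 and Kcnj6, opened by beta-gamma dimers, had log2 fold changes of -0.68 ± 0.13 (edgeR FDR 0.123) and -0.87 ± 0.22 (FDR 0.190) in females. The other channel genes of this set did not share a direction, with Kcnj5 at 1.68 ± 0.66 (FDR 0.331), also at an unadjusted p under 0.05, and Kcnj9 at -0.61 ± 0.34 (FDR 0.536). Kcnj3 was at -0.31 ± 0.12 in males (FDR 1.0) and at -0.49 ± 0.09 over both sexes, where its FDR of 0.0583 passed but its change was under 1.5-fold. Of 9 adenylyl cyclases tested, 4 had an unadjusted p under 0.05 in females (44.4%, against 11.4% of all genes), 2 higher and 2 lower. Among them, Adcy5, the striatal cyclase that Golf drives, was at 1.63 ± 0.49 (FDR 0.226). Adcy1, a cortical one, was at -0.99 ± 0.37 (FDR 0.303) and Adcy2 at -0.40 ± 0.12 (FDR 0.230). Gpr179, an anchor of R7 proteins, was at 1.42 ± 0.38 (FDR 0.194). Adcy2 was also lower in males at an unadjusted p under 0.05 (-0.26 ± 0.11, FDR 1.0). The comparisons over both sexes and within each sex share their libraries. The part of the striatal and cortical markers in the values of the partners was not tested.

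The promoters of 38 members were in the RefSeq table of GRCm38.p6 (250 bases before to 50 after each start). Because Gs and Golf drive adenylyl cyclases to make cAMP, which acts through CREB, the full CREB site TGACGTCA and its core TGACG were searched on both strands, and the core lies within the full site. The full site was in 0 of 38 members, against 2.03% of all genes with a promoter there. The core was in 10 of 38 members (26.3%) and in 23.0% of all genes: Gnai3, Gnas, Gnb1, Gnb2, Gng4, Gng7, Rgs12, Rgs2, Rgs4 and Rgs8. A match is a description of the letters only. The stretches below are those of the 4 members with an unadjusted p under 0.05 for the diet, each read along the gene, with the core in capitals (TGACG, or CGTCA where it lies on the other strand). They lie at chr10:81001442-81001502 (Gng7, minus strand), chr5:34998968-34999028 (Rgs12, plus strand), chr1:144004184-144004244 and chr1:144004302-144004362 (Rgs2, minus strand) and chr1:153652963-153653023 (Rgs8, plus strand).
Gng7: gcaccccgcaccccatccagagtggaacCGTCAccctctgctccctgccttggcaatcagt
Rgs12: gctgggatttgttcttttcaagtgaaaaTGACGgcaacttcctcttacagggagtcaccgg
Rgs2, nearer site: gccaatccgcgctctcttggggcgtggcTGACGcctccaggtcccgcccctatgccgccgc
Rgs2, farther site: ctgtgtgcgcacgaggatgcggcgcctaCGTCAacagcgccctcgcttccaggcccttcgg
Rgs8: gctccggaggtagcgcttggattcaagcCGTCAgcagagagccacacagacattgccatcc
The Gng7 and Rgs12 stretches belong to starts inside the annotated genes, and those of Rgs2 and Rgs8 lie just before the annotated start.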

How the data were processed

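The authors aligned reads of stranded total RNA libraries to mm10 with STAR and deposited raw counts per gene for each of 20 cortex libraries. Versions, annotation and the strand counted are not given in the sources used here. Groups came from the labels, where SD is the CD, and replicates were separate mice. Coordinates and exon lengths came from GENCODE annotation of GRCm38.

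Of 23413 genes, 15660 passed filterByExpr, among them 46 of the 52 members. The quasi-likelihood F test of edgeR 4.0.16 (R 4.3.3) was fitted to the deposited counts of all libraries, with upper-quartile normalization, the 4 groups and the library series, robust dispersions and Benjamini-Hochberg adjustment over all genes tested. CPM used library totals. Permutation tests used log2 CPM with a prior count of 2 over all splits within a sex, with no series term. They were run for all 46 tested members in each sex, and their p-values are unadjusted. The script was tested on simulated data. In all 41 pairs of libraries within a group the counts differed by more than sampling noise (chi-square 7.25 to 115 per degree of freedom).

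The members, classes, partners and markers were chosen with earlier results of these data known, so their values are not independent evidence. Named are, for each comparison, the 12 members of smallest p under 0.05, the highest of each class, 12 further members, untested members and up to 6 partners per diet comparison. Gnai2, Gnai3, Gnao1, Gnaz, Gna12, Gng3, Gng10, Gng11, Gngt2, Rgs16, Rgs18, Rgs19, Rgs20, Rgs11, Kcnj5, Kcnj9 and the promoter matches are outside this rule and were named after their values were seen. Alternatives were TMM and DESeq2 size factors, other filters, no series term, RUVg (written anew for this work, with all but 5000 genes as controls), the striatal score, DESeq2 1.42.0, the likelihood ratio test, each sex or series alone, another gene length and leaving out each library. Microglial and oligodendrocyte sums leave out 1 marker each, which is not reported here.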

Additional observations from a re-analysis of the deposited data

Results flagged for a closer look

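Of 104 sets of libraries (26 named members in 4 groups), 10 held a library far from the rest of its group, where chance gives about 1 in 20, or 5.2. Each value is the gap to the nearest library of the group divided by the range of the group. KD male E59 stood highest for Gnal (0.906, 582 CPM against 184 CPM in the next library), Rgs8 (0.832), Gng7 (0.789) and Gnb5 (0.751). CD female E249 stood highest for Rgs10 (0.85) and Rgs2 (0.716) and lowest for Rgs6 (0.749). KD female E227 stood highest for Rgs6 (0.953, 42.3 CPM against 21.3 CPM in the next library) and Rgs7 (0.872). KD male E64 stood highest for Rgs1 (0.645). These 3 libraries, E59, E249 and E227, hold 9 of the 10 values, and their striatal marker sums also differ from those of their groups. The part of these markers was not tested here.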

How the results depend on the processing

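No paired analysis was possible because no replicate number is shared between groups, and replicates are identified by animal. Counts below are members, with the value of the full model in parentheses. The shares of all genes in the same alternative fits are not given in this section. The counts therefore do not show whether members were called more often than other genes. With the striatal score, members at an unadjusted p under 0.05 were 4 (11) in females, 6 (13) over both sexes, 1 (2) for the interaction and 3 (11) between the sexes, and DEGs over both sexes were 0 (2). Within series 1 they were 7 (4) in males and 5 (2) for the interaction, with 4 DEGs (0) in females and 4 (2) over both sexes. Within series 2 they were 6 in females, 0 in males, 4 over both sexes, 0 for the interaction and 4 between the sexes, with 0 DEGs over both sexes. RUVg gave 1 DEG in females with 1 or 2 factors, 5 members for the interaction with either, and 2 between the sexes with 2 factors. DEGs in females were 2 with DESeq2 and 2 with the likelihood ratio test, which also gave 1 between the sexes. No filter, at least 10 counts, or no series term left 1 DEG over both sexes. Leaving out 1 library gave 9 to 14 members in females, 3 to 6 in males, 9 to 18 over both sexes, 0 to 7 for the interaction and 9 to 16 between the sexes. DEGs were then 0 to 7 in females (7 without E249, 6 without E227 and 1 without E59), 0 to 0 in males, 0 to 7 over both sexes (7 without E249), 0 to 0 for the interaction and 0 to 4 between the sexes (4 without E227, 2 without E59). Without E227, E249 and E59 together, chosen after seeing the data, females had 21 members and 9 DEGs and both sexes 6 DEGs. The interaction then had 15 members and 7 DEGs, and the sexes 4 DEGs. In striatal markers E227 and E249 lie with or toward the other diet group, and taking out such libraries widens a diet difference by construction. For the diet, E59 does not lie so: without it alone, Gnal over both sexes fell from 0.70 to 0.47. As a male with high striatal markers it lies toward the KD females, and taking it out widens a difference between the sexes by construction. Without it alone, the interaction of Rgs8 went from 0.76 to 1.045 and Gnal between the sexes from 0.93 to 1.13. The counts for the interaction and between the sexes share this limit. Signs turned with the striatal score for Gng7 (-0.027) and Gnal (-0.31) in females and Gnal over both sexes (-0.14), and with 2 RUVg factors for Rgs2 between the sexes (-0.0086). The cause was not tested. The low members rest on few counts per library: Rgs13 on 3 to 62, Rgs1 on 1 to 23 and Rgs18 on 2 to 22.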
